A study of Mus musculus with 8 samples.

Results

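The translation initiation factors (eIFs) and elongation factors (eEFs) are the proteins that bring the ribosome to an mRNA, set it on the start codon and move it along the coding sequence. Their mRNAs were followed in hematopoietic stem/progenitor cells (HSPCs) of C57Bl/6J mice, which were sorted as cells that lack lineage markers and carry Sca1 and cKit, and were then cultured for 7 days. The members are the protein-coding genes whose symbol begins with Eif1 to Eif6 or with Eef1 or Eef2, with the eIF2 kinases (Eif2ak genes) left out. The rule found 64 genes in the GENCODE M21 annotation (GRCm38), 51 for initiation and 13 for elongation, and 63 of them had a row among the 48709 genes counted. Eef1akmt4 was not analysed here. Of the 63, 57 passed the filter on low counts and were tested, 47 for initiation and 10 for elongation, among 12696 tested genes in all.

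The malonyl-CoA group (4 libraries, numbered 1, 3, 4 and 5) received 100 µM malonyl-CoA throughout culture, and the control group (4 libraries with the same numbers) received none. Both groups were C57Bl/6J cells in the same serum-free medium with stem cell factor (100 ng/ml) and Flt3 ligand (2 ng/ml), and part of it was renewed after 3 or 4 days. Malonyl-CoA is the chain-extending substrate of fatty acid synthesis and an inhibitor of fatty acid entry into mitochondria. RNA came from all progeny of 10000 seeded cells, so that each library is a mixed culture and not the sorted population. The series calls the libraries biological replicates without saying whether each was a mouse, a pool or a culture, and p-values below measure the spread between these samples, which may be technical in part. In bulk RNA, fewer cells of a type and less of an mRNA per cell cannot be told apart.

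Counts assigned to genes ranged from 17492085 to 22079844 per library. All 10 stem and progenitor markers were detected, and the neutrophil precursor markers Mpo, Elane, Prtn3, Ctsg and Ms4a3 together made 13085 to 17104 CPM (counts scaled to a common library size) with malonyl-CoA and 11418 to 20360 CPM in control. Of the T lineage markers, Cd3e was at 0 in all 8 libraries, Lck stood at 5.92 to 9.11 CPM, and the 3 that could be tested (Lck, Cd4, Cd8a) were higher on average with malonyl-CoA. None of the 35 tested markers of 8 cell type lists passed the test. At an unadjusted edgeR p under 0.05, 4 were higher and 7 lower, where 5.43% and 4.10% of all tested genes were. The stem and progenitor marker Cd34 averaged 454 ± 20.1 CPM with malonyl-CoA and 598 ± 41.4 CPM in control (SD, n = 4 each). Of the 10 markers in its list 3 were higher and 7 lower, with log2 fold changes from -0.55 to 0.94 (median -0.09). Csf1r, of monocytes and macrophages, averaged 315 ± 27.8 CPM with malonyl-CoA and 219 ± 16.4 CPM in control. Of the 5 markers in that list 4 were higher and 1 lower. Their sums were 1656 ± 137 CPM with malonyl-CoA and 1596 ± 214 CPM in control. For 3 of the 5 mast cell and basophil markers all malonyl-CoA libraries lay below the controls, as for 2.93% of all tested genes. Over all 35 tested markers this held for 7, and 2 had all malonyl-CoA libraries above the controls (3.21% of all tested genes). The part of cell composition in the values of the factors was not tested. Malonyl-CoA 4 lay apart from the other libraries at 63.3 on the first principal component (48.9% of the variance), with control 4 next at 25.3. It also had the highest share of reads in no gene, 2.94%. The deviation of a gene from its mean went with the GC share of its transcript across 10288 genes, differently by library. Spearman's rho was 0.52, 0.25, 0.23 and 0.20 in malonyl-CoA 1, 3, 4 and 5. It was -0.11, -0.08, 0.24 and -0.74 in controls 1, 3, 4 and 5. This trend went in part with the group, and its part in the fold changes was not tested. Ranges of a log2 fold change given below come from fits with each library left out in turn.

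In initiation, eIF2 carries the first methionyl tRNA to the small ribosomal subunit, eIF3 holds that subunit together with the other factors, and the eIF4 proteins bind the cap of the mRNA and unwind its leader. In elongation, eEF1A delivers aminoacyl tRNAs, the eEF1B proteins (Eef1b2, Eef1d, Eef1g) recharge it with GTP, and eEF2 moves the ribosome forward. Blood stem cells are known for a low rate of protein synthesis, which rises as they turn into progenitors.

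No initiation or elongation factor passed the test. In edgeR's quasi-likelihood fit of malonyl-CoA against control, 0 of the 47 initiation factors and 0 of the 10 elongation factors had an adjusted p under 0.05, and neither did any of the 12696 genes (0%). DESeq2 called 82 of 13745 genes (0.597%), none of them a factor. At an unadjusted edgeR p under 0.05, 0 factors were higher with malonyl-CoA, where 5.43% of all tested genes were, and 3 initiation factors were lower, Eif3e, Eif3m and Eif2a, where 4.10% of all tested genes were. With 3 of 47 initiation factors and 0 of 10 elongation factors, these shares stood near the background of all genes.

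The median log2 fold change (malonyl-CoA over control) was -0.03 over the initiation factors, of which 22 were higher and 25 lower, and -0.08 over the elongation factors, of which 3 were higher and 7 lower. Over all tested genes it was 0.02. The 95% interval of the log2 fold change lay inside -1 to 1 for 52 of the 57 tested factors. The 5 whose interval reached past those limits were Eif3a, Eif3e, Eif4g1, Eif4g3 and Eif5b.

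Summed over its 51 genes, initiation factor mRNA came to 14225, 13708, 12987 and 14926 CPM in malonyl-CoA 1, 3, 4 and 5, against 14831, 14410, 14033 and 14587 CPM in controls 1, 3, 4 and 5. The groups overlapped. The 6 genes of eEF1 and eEF2 came to 23531, 20703, 15279 and 22946 CPM with malonyl-CoA, against 28581, 26247, 21710 and 18553 CPM in control. Malonyl-CoA 4 was lowest in both sums, and control 5 was the lowest control for the elongation factors. The cytosolic ribosomal protein genes came to 59864, 53248, 37238 and 68349 CPM with malonyl-CoA, against 75938, 70561, 53799 and 66017 CPM in control, again with malonyl-CoA 4 lowest.

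**Figure D1:**
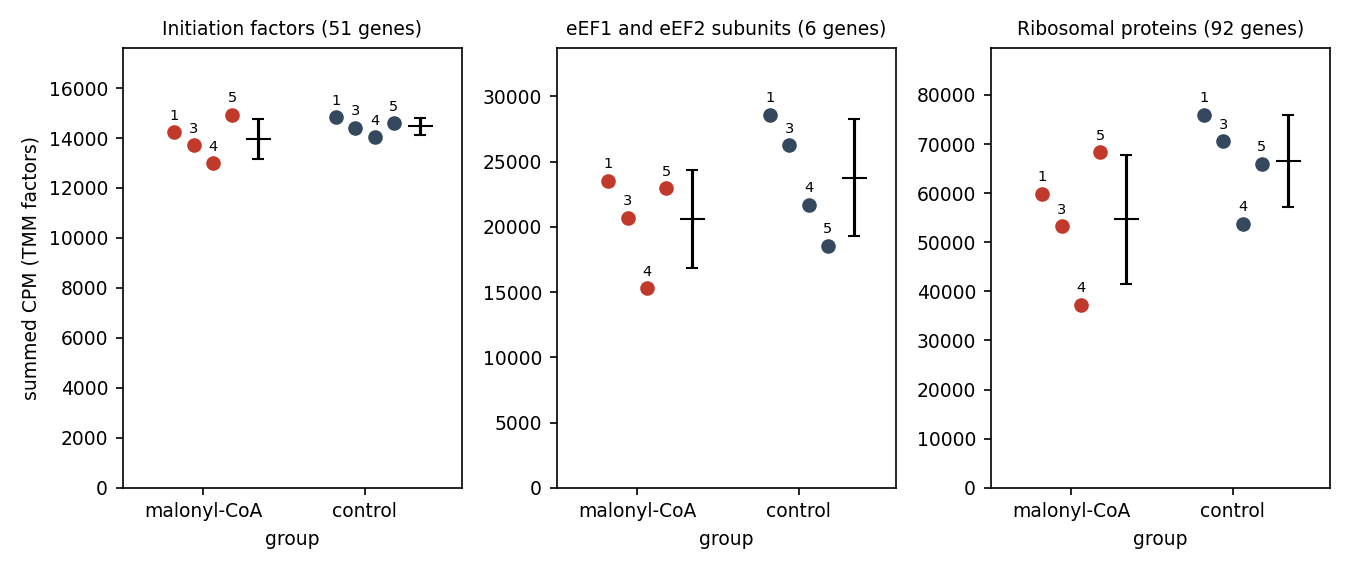
Summed CPM (vertical axis, TMM factors) of the initiation factors, of the eEF1 and eEF2 genes and of the ribosomal protein genes, malonyl-CoA left of control, 1 point per library with its number and the mean ± SD beside the points. Initiation factors stayed between 12987 and 14926 CPM in all 8 libraries, while the eEF1 and eEF2 sum ran from 15279 CPM in malonyl-CoA 4 to 28581 CPM in control 1.

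Elongation factor mRNA was concentrated in 2 genes. Per kilobase of exon and averaged over the 8 libraries, the level was 5410 CPM per kb for Eef1a1, 1789 for Eef2, 742 for Eef1b2 and 238 for Eef1g, against 817 for Eif5a, 341 for Eif3h, 219 for Eif3f and 173 for Eif4g2, the most abundant initiation factors. The median was 36.5 CPM per kb over the tested elongation factors and 49.4 over the tested initiation factors.

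Eef1a1 (ENSMUSG00000037742, GRCm38 chr9:78478449-78489151), the main eEF1A gene of proliferating cells, had 14240, 12190, 8872 and 13680 CPM in malonyl-CoA 1, 3, 4 and 5, against 17559, 16572, 12973 and 11814 CPM in controls 1, 3, 4 and 5. On the log2 scale the fitted difference was -0.27 (SE 0.20, edgeR adjusted p = 0.584). It was -0.15 without malonyl-CoA 4, -0.17 without control 1 and -0.36 without control 5. The groups overlapped, with controls 4 and 5 inside the range of the malonyl-CoA libraries and controls 1 and 3 above it. Eef1a1 has a processed copy that covers 73.4% of its transcript at 98% identity or more, so its count is uncertain.

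Eef1b2 (ENSMUSG00000025967, chr1:63176825-63180486), an exchange factor that reloads eEF1A, had 1754, 1558, 1056 and 2061 CPM with malonyl-CoA, against 2430, 2245, 1675 and 2246 CPM in control. It had the smallest p of the elongation factors, with a log2 fold change of -0.42 (SE 0.21, edgeR adjusted p = 0.515). Control 4 alone lay inside the malonyl-CoA range, and the other controls lay above it. With a library left out the log2 fold change ranged from -0.56 without malonyl-CoA 5 to -0.27 without malonyl-CoA 4. Eef1b2 overlaps Ndufs1 on the other strand. The strand setting of the counting is not given in the sources used here, so reads of the pair may be mixed. A pseudogene copy covers 14.3% of the Eef1b2 transcript.

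The other subunits of the exchange complex stood closer to 0. Eef1g, its structural subunit, averaged 619.8 ± 126 CPM with malonyl-CoA and 618 ± 77.5 CPM in control (SD, n = 4 each). A pseudogene copy covers 72.0% of the Eef1g transcript, so the Eef1g count is uncertain. Eef1d, another exchange subunit, had a log2 fold change of -0.03 (SE 0.16, range -0.16 to 0.08). Whether the subunits differed from each other was not tested.

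Eef2 (ENSMUSG00000034994, chr10:81176631-81182498), the translocase, had 6616, 6065, 4711 and 6132 CPM with malonyl-CoA, against 7575, 6519, 6200 and 3744 CPM in control. The fitted difference on the log2 scale was -0.03 (SE 0.22, edgeR adjusted p = 0.959). The lowest library of each group, malonyl-CoA 4 and control 5, set most of its spread, and the log2 fold change was -0.20 without control 5 and 0.10 without control 1.

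The enzymes that act on elongation factors were low in level. Eef2k, the kinase that phosphorylates eEF2 and slows elongation, had 153, 158, 197 and 139.6 CPM with malonyl-CoA, against 133, 135, 198 and 127 CPM in control (log2 fold change 0.13, SE 0.17, range 0.0093 to 0.30). Eef2kmt, a lysine methyltransferase of eEF2, averaged 19.1 ± 3.8 CPM with malonyl-CoA and 15.6 ± 2.2 CPM in control (SD, n = 4 each), a log2 fold change of 0.29 (SE 0.17, edgeR adjusted p = 0.530), and 0.13 without malonyl-CoA 4. The groups overlapped for both genes.

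Eef1akmt1 and Eef1akmt2, lysine methyltransferases of eEF1A, averaged 29.0 ± 7.07 and 20.6 ± 3.31 CPM with malonyl-CoA, and 32.0 ± 2.67 and 24.4 ± 4.91 CPM in control (SD, n = 4 each). Eef1e1, a scaffold of the multi-synthetase complex named for its likeness to eEF1 subunits, averaged 62.4 ± 11.6 CPM with malonyl-CoA and 68.0 ± 8.15 CPM in control. Another methyltransferase of eEF1A, Eef1akmt3, was too low to test, with 5, 6, 5 and 5 counts in the malonyl-CoA libraries against 0, 3, 2 and 4 counts in the controls. Counts this low carry a large counting error.

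Within eIF3 the subunit mRNAs went both ways. Of its 13 tested genes, 5 were higher on average with malonyl-CoA (Eif3a, Eif3b, Eif3c, Eif3d, Eif3g) and 8 lower (Eif3e, Eif3f, Eif3h, Eif3i, Eif3j1, Eif3k, Eif3l, Eif3m), from 0.41 for Eif3a to -0.57 for Eif3e on the log2 scale, and none passed the test. Summed over the complex, the level was 4675 ± 311 CPM with malonyl-CoA and 5048 ± 232 CPM in control (SD, n = 4 each).

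Eif3e (ENSMUSG00000022336, chr15:43250058-43282719), a scaffold subunit on the outer side of eIF3, had 588, 565, 359 and 656 CPM in malonyl-CoA 1, 3, 4 and 5, against 862, 771, 547 and 1037 CPM in controls 1, 3, 4 and 5. The estimated log2 fold change came to -0.57 (95% interval -1.08 to -0.06, SE 0.23, edgeR adjusted p = 0.507). Control 4 alone lay within the malonyl-CoA range, and the other controls lay above it. The difference was -0.72 without control 4, -0.67 without malonyl-CoA 5, -0.42 without malonyl-CoA 4, -0.42 without control 5, -0.27 without both of the last named and -0.37 after correction for GC content, and none of these passed the test.

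Eif3m (ENSMUSG00000027170, chr2:104999656-105017080), another subunit with a PCI domain like Eif3e, had 282, 270.5, 183 and 315 CPM with malonyl-CoA, against 389, 363, 271 and 383 CPM in control. This gave a log2 fold change of -0.42 (SE 0.18, edgeR adjusted p = 0.515, range -0.53 to -0.29). As for Eif3e, 3 of the 4 controls lay above every malonyl-CoA library and control 4 did not. A pseudogene copy covers 87.7% of the Eif3m transcript at 98% identity or more, and its count is uncertain for that reason.

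Eif3h, the partner of Eif3f in the pair of MPN-domain subunits, had 537, 475, 356 and 591 CPM with malonyl-CoA, against 657, 598, 497 and 686 CPM in control (log2 fold change -0.32, SE 0.17, and -0.20 without malonyl-CoA 4). Eif3f averaged 576 ± 111 CPM with malonyl-CoA and 688 ± 149 CPM in control (SD, n = 4 each). The groups overlapped for both genes.

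On the higher side, Eif3d (chr15:77958998-77970813), the subunit that can bind the mRNA cap, had 252, 257, 273 and 253 CPM with malonyl-CoA, against 209, 217, 260.0 and 173 CPM in control. On the log2 scale the fitted difference was 0.27 (SE 0.13, edgeR adjusted p = 0.515, range 0.18 without control 5 to 0.38 without control 4). Control 4 again lay among the malonyl-CoA libraries, while the other controls lay below them.

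Eif3b, a core subunit with a beta-propeller fold, had 489, 476, 485 and 488 CPM with malonyl-CoA, against 395, 409, 502 and 346 CPM in control (log2 fold change 0.23, SE 0.12). After correction for GC content its log2 fold change was 0.03. Eif3c, the core scaffold beside Eif3a, had 508, 519.8, 628 and 450.2 CPM with malonyl-CoA, against 332, 400.3, 539 and 448 CPM in control (log2 fold change 0.29, SE 0.16, range 0.19 to 0.42). Eif3g, an RNA-binding subunit, averaged 163 ± 5.41 CPM with malonyl-CoA and 144 ± 19.0 CPM in control (SD, n = 4 each), and the sign of its difference turned after correction for GC content. For each of these 3 subunits control 4 stood among or above the malonyl-CoA libraries.

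**Figure D2:**
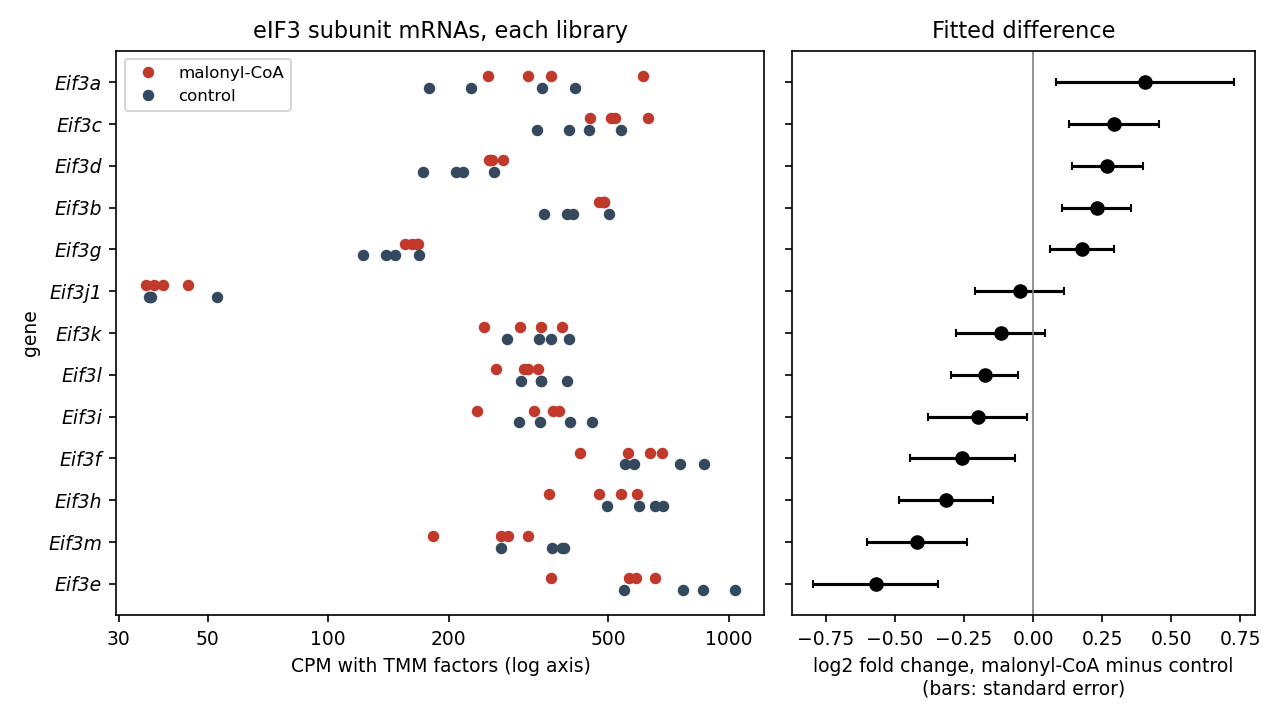
Left, CPM of the 13 tested eIF3 genes on a log axis, 1 point per library, malonyl-CoA above control for each gene. Right, the fitted log2 fold change (malonyl-CoA over control) with its standard error, from -0.57 for Eif3e at the bottom to 0.41 for Eif3a at the top, with the points of the groups overlapping for every gene.

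Promoter sequence was described for the factors, with examples from eIF3 genes on the higher and the lower side. RefSeq windows from 250 bases before to 50 bases after a transcript start were found for 48 of the factors (62 windows). The letters CCGGAAG, a core site of ETS-family factors, on either strand, stood in 18 of 51 windows of initiation factors (35.3%), in 1 of 11 windows of elongation factors (9.09%) and in 17.7% of the 11999 windows of 9392 tested protein-coding genes. A window with the letters is a description and not a site in use, and windows of a gene can share bases. These 5 eIF3 windows are shown because they hold the letters in genes of both directions (60 bases each on the gene's strand, 5′ to 3′, build GRCm38.p6, with CCGGAAG or its reverse complement CTTCCGG in capitals):
Eif3c (chr7:126566400-126566459, minus strand): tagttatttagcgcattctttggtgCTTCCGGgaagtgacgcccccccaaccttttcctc
Eif3d (chr15:77970860-77970919, minus strand): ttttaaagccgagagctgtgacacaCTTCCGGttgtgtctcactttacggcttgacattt
Eif3g (chr9:20898600-20898659, minus strand): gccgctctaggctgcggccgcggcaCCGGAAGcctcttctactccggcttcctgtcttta
Eif3l (chr15:79075163-79075222, plus strand): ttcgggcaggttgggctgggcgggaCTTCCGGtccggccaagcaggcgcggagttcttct
Eif3m (chr2:105017048-105017107, minus strand): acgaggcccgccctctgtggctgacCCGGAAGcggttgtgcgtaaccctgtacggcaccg

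Of these, Eif3c, Eif3d and Eif3g were higher on average with malonyl-CoA and Eif3l and Eif3m lower. The eIF3 genes without the letters were not set beside them, so whether the letters go with direction was not tested. The letters TATAAA, the core of a TATA box, stood in 4 of 51 initiation windows (7.84%), in 1 of 11 elongation windows (9.09%) and in 6.88% of all windows, and AAGATGGC, a core site of YY1, in 5 of 51 (9.80%), 1 of 11 (9.09%) and 4.48%. The elongation window with TATAAA belonged to Eef2, the second most abundant factor per kilobase, and is shown for that reason with the letters in capitals:
Eef2 (chr10:81176591-81176650, plus strand): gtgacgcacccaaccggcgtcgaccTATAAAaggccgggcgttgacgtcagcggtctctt

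The factors of start codon choice were mostly lower on average with malonyl-CoA (5 of 6), at a median of -0.16 on the log2 scale, and none was past the test. Eif5 (ENSMUSG00000021282, chr12:111538016-111546752), which makes eIF2 hydrolyse its GTP at the start codon, had 362, 383, 388 and 342 CPM with malonyl-CoA, against 388, 400.1, 398 and 491 CPM in control. It was the only tested factor whose 4 malonyl-CoA libraries all lay below the 4 controls, and 2.93% of all tested genes did so. No tested factor had all malonyl-CoA libraries above the controls, where 3.21% of all tested genes did. The gap was narrow, since the highest malonyl-CoA library and the lowest control both round to 388 CPM, and the groups differed by -0.19 on the log2 scale (SE 0.11, edgeR adjusted p = 0.535), and by -0.10 without control 5.

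Eif1, which scans for the start codon, averaged 312 ± 51.9 CPM with malonyl-CoA and 317 ± 38.5 CPM in control (SD, n = 4 each). Its close paralogue Eif1b averaged 59.9 ± 12 CPM with malonyl-CoA and 70.7 ± 13.7 CPM in control. Eif5b, a GTPase that joins the ribosomal subunits, was the gene of this group that was higher on average, and its values stand with those of the other long genes.

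Among the eIF2 proteins, Eif2a (ENSMUSG00000027810, chr3:58525821-58557501) had the smallest unadjusted p of all factors. It encodes eIF2A, a factor that can deliver the initiator tRNA apart from eIF2, and not the alpha subunit of eIF2, which Eif2s1 encodes. Eif2a had 159.5, 158, 124 and 165 CPM with malonyl-CoA, against 212, 190.2, 156 and 256 CPM in control. The fitted difference on the log2 scale was -0.42 (SE 0.16, edgeR adjusted p = 0.502), from -0.53 without control 4 to -0.29 without control 5, and -0.21 without both control 5 and malonyl-CoA 4. Control 4 alone lay within the malonyl-CoA range. Eif2a overlaps Serp1 on the other strand, and since the strand setting of the counting is not given in the sources used here, reads of the pair may be mixed.

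The subunits of eIF2 itself had log2 fold changes of -0.20 (SE 0.18) for Eif2s1, -0.25 (SE 0.19) for Eif2s2 and -0.04 (SE 0.12) for Eif2s3x. Without control 5 that of Eif2s1 was -0.08 and that of Eif2s2 was -0.02. Eif2s3y, the Y-linked copy of Eif2s3x, had 0 counts in all 8 libraries, as did the other Y-linked genes Ddx3y, Kdm5d and Uty. The 5 subunits of eIF2B, the exchange factor that reloads eIF2, had a median of 0.11 on the log2 scale, with 4 of 5 higher on average and summed levels of 289 ± 9.42 CPM with malonyl-CoA and 272 ± 23.6 CPM in control (SD, n = 4 each). None passed the test.

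The 10 tested genes of the eIF4 group had a median of -0.04 on the log2 scale. Of these, 4 were higher on average, 6 lower and none past the test. This group is wider than the cap-binding complex itself, since it also holds genes such as Eif4b, Eif4h and Eif4g2. Eif4g1 (ENSMUSG00000045983, chr16:20668313-20692884), the scaffold that joins the cap, the helicase and eIF3, had 352, 385, 654 and 306 CPM with malonyl-CoA, against 195, 243, 458 and 293 CPM in control. The estimated log2 fold change came to 0.51 (SE 0.30, edgeR adjusted p = 0.530). It was 0.22 without malonyl-CoA 4, 0.80 without control 4 and 0.51 (SE 0.15) without both. Its paralogue Eif4g3 had 47.0, 53.7, 132 and 39.5 CPM with malonyl-CoA, against 21.8, 32.2, 66.7 and 51.7 CPM in control (log2 fold change 0.66, SE 0.44). It was 0.11 without malonyl-CoA 4, 0.95 without control 4 and 0.40 without both. Malonyl-CoA 4 and control 4 were the highest library of their group for both scaffolds, and control 1 the lowest of all.

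The genes of smaller proteins in the eIF4 group differed by less. Eif4e, the cap-binding protein, averaged 205 ± 28.5 CPM with malonyl-CoA and 212 ± 15.3 CPM in control (SD, n = 4 each), with a 95% interval of the log2 fold change from -0.33 to 0.23. The helicase gene Eif4a1 averaged 352 ± 40.2 CPM with malonyl-CoA and 348 ± 29.5 CPM in control, with an interval from -0.25 to 0.28. Its count is uncertain, since a pseudogene copy covers 68.7% of its transcript. The other cap-binding genes were Eif4e2 at 96.0 ± 9.20 CPM with malonyl-CoA and 98 ± 5.81 CPM in control, and Eif4e3 at 41.0 ± 2.74 CPM with malonyl-CoA and 46.8 ± 7.76 CPM in control.

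Eif4a2, the second helicase gene, had 108, 115, 209.9 and 107 CPM with malonyl-CoA, against 143, 158, 127 and 195 CPM in control. In 3 malonyl-CoA libraries it was below every control, and in malonyl-CoA 4 it was above every control. On the log2 scale the groups differed by -0.21 (SE 0.23, edgeR adjusted p = 0.699), by -0.51 without malonyl-CoA 4 (edgeR adjusted p = 0.332) and by -0.08 without control 5.

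The inhibitors that hold eIF4E off the scaffold are the Eif4ebp genes. Eif4ebp1 had 187, 168, 126 and 194 CPM with malonyl-CoA, against 168, 168, 118 and 121 CPM in control (log2 fold change 0.23, SE 0.18, range 0.15 to 0.34). Eif4ebp2 averaged 95.6 ± 13.3 CPM with malonyl-CoA and 93.4 ± 18.7 CPM in control (SD, n = 4 each). Eif4ebp3 had at most 5 counts in any library and was not tested. These genes and the transporter Eif4enif1 make 3 tested members, all of them higher on average with malonyl-CoA and none past the test. Without malonyl-CoA 4 the log2 fold change of Eif4enif1 was -0.0054.

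Shares within a family do not depend on the scaling between libraries, and 5 of them were compared by exact permutation over the 70 splits of 8 libraries, where the smallest two-sided p is 0.0286. Per kilobase of exon, Eif4a2 made 23.6% ± 7.78 of Eif4a1 and Eif4a2 together with malonyl-CoA and 26.5% ± 2.44 in control (SD, n = 4 each, exact p = 0.571). Eif1b made 26.3% ± 0.646 of Eif1 and Eif1b with malonyl-CoA and 29.3% ± 3.05 in control (exact p = 0.143). The shares of Eif4ebp1, Eif4g3 and Eif4e3 in their families differed by 1.72, 0.498 and -1.78 percentage points, malonyl-CoA minus control (exact p = 0.543, 0.657 and 0.343). Adjusted over the 5 shares, each p was 0.657. Pseudogene copies cover 68.7% of the Eif4a1 transcript, 25.9% of that of Eif1 and 13.1% of that of Eif4e. Since reads with several positions were not counted, the percentages in these families are uncertain.

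The exact p of 2 of these shares reached its floor when 1 library was left out. With 7 libraries the smallest possible exact p is again 0.0286. These 2 were the lowest among all leave-outs of the 5 shares and were not adjusted for that choice. They do not change the adjusted p of 0.657 over all libraries. Without malonyl-CoA 4 the share of Eif4a2 differed by -6.64 percentage points (unadjusted exact p = 0.0286), and without control 3 the share of Eif1b differed by -4.20 points (unadjusted exact p = 0.0286). The Eif4g3 share differed by -0.411 points without malonyl-CoA 4, a turn of its sign.

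Eif5a (ENSMUSG00000078812, chr11:69916714-69921958), the hypusine-bearing protein that helps ribosomes through difficult peptide bonds, was the most abundant initiation factor per kilobase. It had 2115, 1890, 1449 and 2388 CPM with malonyl-CoA, against 2282, 2079, 1890 and 1433 CPM in control, a log2 fold change of 0.03 (SE 0.19, edgeR adjusted p = 0.956). The lowest values of the groups, malonyl-CoA 4 and control 5, were nearly the same. Eif6, which keeps the large ribosomal subunit free, averaged 180 ± 35.4 CPM with malonyl-CoA and 164 ± 46.6 CPM in control (SD, n = 4 each).

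**Figure D3:**
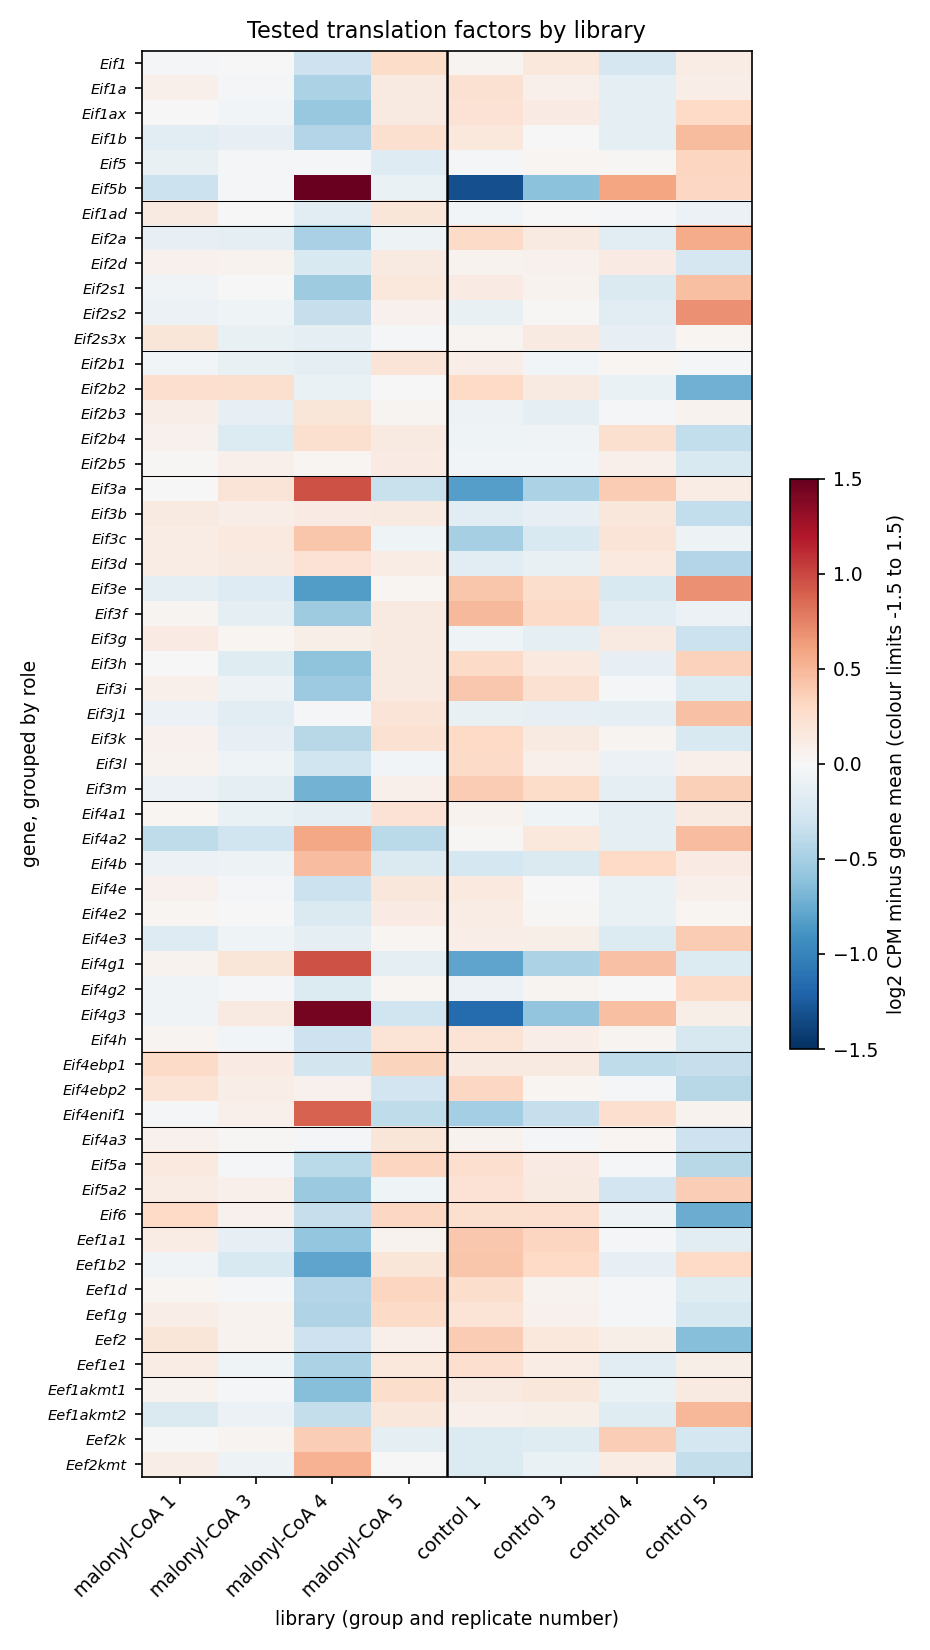
Log2 CPM of the 57 tested factors minus the mean of the gene, by library (columns, malonyl-CoA left of the line and control right of it) and grouped by role (rows), with stronger colours for larger deviations. Malonyl-CoA 4 has the strongest colours, red for Eif5b, Eif4g3, Eif3a and Eif4g1 and blue for most short factors, and control 1 shows the same long genes in blue.

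Between libraries, 4 factors with long coding sequences varied most. The highest over the lowest of the 8 libraries was 6.98 for Eif5b, 6.05 for Eif4g3, 3.42 for Eif3a and 3.35 for Eif4g1, then 2.89 for the shorter Eif3e and 2.63 for Eif4enif1, the transporter that carries eIF4E into the nucleus. The median was 1.67 over the tested factors, and the long factors Eif2b5 at 1.27, Eif3b at 1.45 and Eif4g2 lay below it. For Eif5b, Eif4g3, Eif3a, Eif4g1 and Eif4enif1 the highest library was malonyl-CoA 4 and the lowest control 1. Eif5b had 48.8, 60.3, 171 and 57.4 CPM with malonyl-CoA, against 24.5, 39.9, 92.6 and 76.3 CPM in control, and Eif3a had 316, 361, 611 and 251 CPM with malonyl-CoA, against 179, 227, 413 and 342 CPM in control. Neither passed the test (edgeR adjusted p = 0.636 and 0.591). Without malonyl-CoA 4 the log2 fold change was -0.08 for Eif5b and 0.08 for Eif3a.

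Of the 9 initiation factors with a coding sequence of at least 2000 bases, 8 were higher on average with malonyl-CoA, and the median was 0.32 on the log2 scale. Of the 38 shorter ones, 14 were higher, with a median of -0.05. Over all tested genes, 75.4% of the 3502 of that length were higher, with a median of 0.20, and 45.7% of the 8274 shorter genes were, with a median of -0.03. Long and short genes also stood apart in single libraries. Long initiation factors deviated from their mean by a median of 0.88 on the log2 scale in malonyl-CoA 4, 0.25 in control 4 and -0.51 in control 1, and long genes as a whole by 0.44, 0.14 and -0.25. Over all 47 initiation factors, long and short, the median log2 fold change was -0.03 before and after correction for GC content and length together. This median does not show what became of the long factors. Among these, the corrected log2 fold change was 0.07 for Eif3b, 0.28 for Eif3c, 0.28 for Eif4g1 and 0.36 for Eif4g3. The part of coding length in the differences of single factors was not tested.

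**Figure D4:**
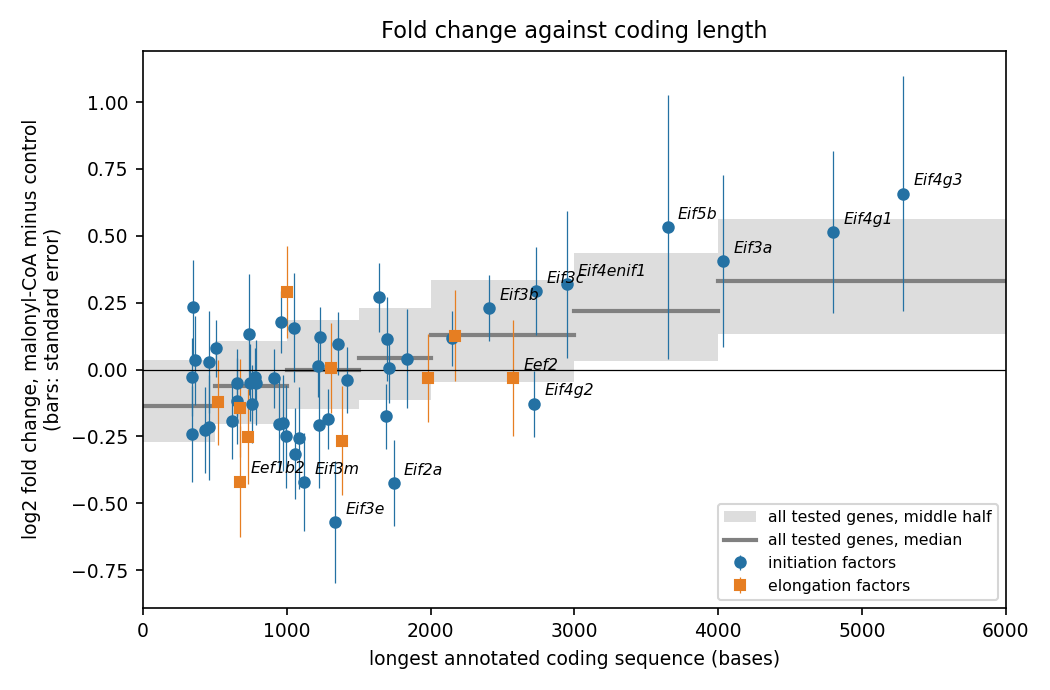
Log2 fold change (malonyl-CoA over control, bars give the standard error) against the longest annotated coding sequence in bases, for initiation factors (circles) and elongation factors (squares), over the median and the interquartile range of all tested genes in bins of length. The median of all genes runs from -0.14 under 500 bases to 0.33 from 4000 to 6000 bases, with Eif5b and Eif4g3 above the interquartile range of their bins and Eif4g2 below that of its bin.

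**Figure D5:**
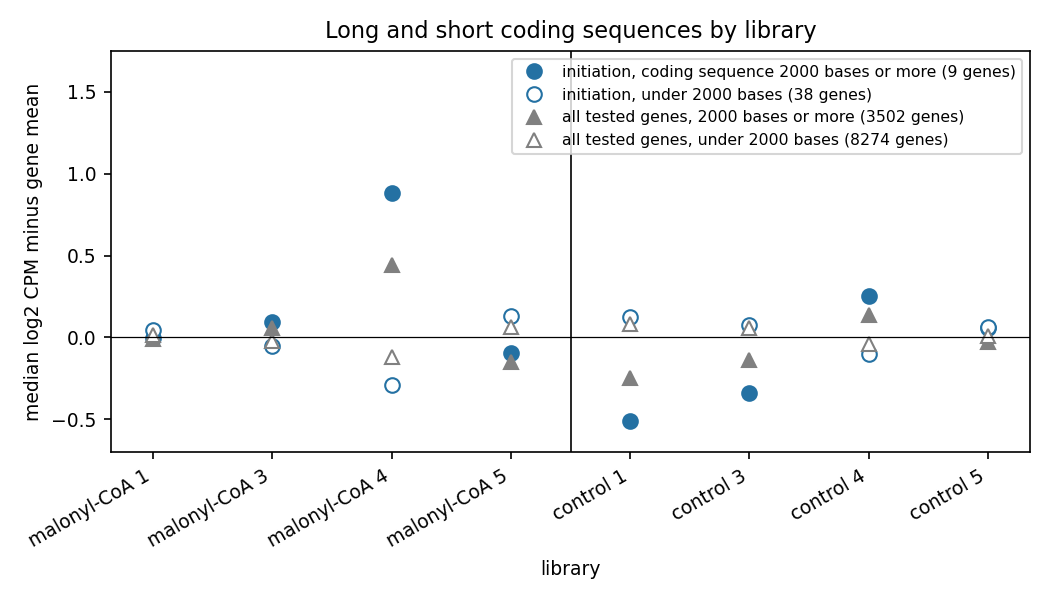
Median log2 CPM minus the mean of the gene in each library, malonyl-CoA left of the line and control right of it, for initiation factors (blue) and all tested genes (grey) with long (filled) and short (open) coding sequences. Long initiation factors stand at 0.88 in malonyl-CoA 4 and -0.51 in control 1, further from 0 than long genes as a whole.

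Across genes, the log2 fold change went with coding length at a Spearman's rho of 0.39 in the initiation factors (47 genes) and 0.39 in all tested genes (11776 with an annotated coding sequence), and with transcript GC content at 0.56 and 0.46. These genes share the same 8 libraries and are not independent replicates. Malonyl-CoA 4 was the lowest of the 8 libraries for 22 of the 47 initiation factors and for 7 of the 10 elongation factors, where it was the lowest for 24.4% of all tested genes. It was the highest for 11 of the 47 and 1 of the 10, where it was the highest for 31.4% of all tested genes. Without malonyl-CoA 4, the median log2 fold change was -0.0043 over the initiation factors and 0.0062 over the elongation factors.

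The other genes of translation control were listed by role, and 0 of them passed the test. Of 8 genes, namely the eIF2 kinases, the subunits of the eIF2 phosphatase and the transcription factors Atf4 and Ddit3 that act downstream of eIF2 phosphorylation, 7 were higher on average with malonyl-CoA (median log2 fold change 0.25). They deviated from their means by a median of 0.49 on the log2 scale in malonyl-CoA 4 and -0.44 in control 1. Ppp1r15a, the inducible phosphatase subunit that removes phosphate from eIF2, averaged 25.8 ± 3.99 CPM with malonyl-CoA and 16.6 ± 2.60 CPM in control, and the stress transcription factor Ddit3 14 ± 4.00 CPM with malonyl-CoA and 9.07 ± 1.00 CPM in control (SD, n = 4 each). Their log2 fold changes were 0.64 and 0.63 (edgeR adjusted p = 0.352 and 0.445). For both genes all malonyl-CoA libraries lay above the controls, as for 3.21% of all tested genes. At an unadjusted edgeR p under 0.05, these 2 of the 8 genes were higher and 0 were lower, where 5.43% and 4.10% of all tested genes were. Atf4, the factor that eIF2 phosphorylation induces, averaged 878 ± 92.4 CPM with malonyl-CoA and 792 ± 42.9 CPM in control.

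The 11 genes around mTORC1 and the MNK kinases, which act on eIF4E and its inhibitors, include regulators such as Tsc1, Tsc2 and Rheb. A count over them therefore gives no direction for mTORC1 activity. On average 10 were higher and Rheb was lower, at -0.31 on the log2 scale (median of the list 0.25). The median deviation of the 11 genes was 0.58 in malonyl-CoA 4, 0.23 in control 4 and -0.39 in control 5. Among them was Larp1, a repressor of ribosomal protein mRNAs, at 187 ± 121 CPM with malonyl-CoA and 101 ± 61.6 CPM in control (SD, n = 4 each), and at 364 CPM in malonyl-CoA 4. The part of that library in these counts was not tested. Of the 5 genes that bind the poly(A) tail or its binding protein, 4 were lower, with Paip2, an inhibitor of poly(A)-binding protein, at 237 ± 36.8 CPM with malonyl-CoA and 324 ± 51 CPM in control. Of the 8 tested termination and recycling factors 7 were lower (median -0.05), and of the 10 mitochondrial factors 6 were (median -0.01). Of the 9 enzymes that make hypusine and diphthamide, the modified residues of eIF5A and eEF2, 5 were higher (median 0.03).

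Of the 37 tested aminoacyl-tRNA synthetase genes 24 were higher (median 0.11), with Aars at 313 ± 19.9 CPM with malonyl-CoA and 228 ± 49.0 CPM in control (SD, n = 4 each, log2 fold change 0.46, edgeR adjusted p = 0.448). Of the 85 tested ribosomal protein genes 76 were lower (median -0.31), and 12 of these were lower at an unadjusted p under 0.05, as were 4.10% of all tested genes. Over all tested genes 53.4% were higher. Ribosomal protein genes have short coding sequences, with a median of 456 bases, and deviated by a median of -0.65 on the log2 scale in malonyl-CoA 4. The part of that library and of length in these counts was not tested.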

How the data were processed

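RNA-seq was done on 8 cultures of mouse HSPCs, 4 with malonyl-CoA and 4 controls, grouped from the sample titles. Raw counts for each Ensembl gene were deposited by the authors, made on GRCm38 with STAR 2.5.2b, HTSeq 0.6.1 and cutadapt 1.8, per the submitters' processing notes. Each library took 350 ng of RNA into a strand-marking kit for total RNA, as the labels' protocols state. Which annotation release and which strand setting the counting used is not given in the sources used here, so overlapping and antisense genes are uncertain. Reads with several positions, 38.2% to 51.1% of tallied reads, reads in no gene, 1.11% to 2.94%, and ambiguous reads, 0.715% to 0.891%, were kept out of library sizes. Of 48709 gene identifiers 48349 matched GENCODE M21, which gave symbols, coordinates and coding lengths.

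The fit was edgeR 4.0.16 in R 4.3.3: TMM scaling, filterByExpr with 10 as minimum count and 15 as minimum total, robust glmQLFit and two-sided glmQLFTest, adjusted by Benjamini-Hochberg over 12696 genes, threshold 0.05, no covariate. Standard errors divide the size of the log2 fold change by the root of F, and 95% intervals use the degrees of freedom of that test. CPM carry TMM factors. Family shares were compared by exact permutation and adjusted over 5 shares. Copies are blastn alignments of transcripts at 98% identity or more over at least 200 bases. On simulated counts for the same comparison and 12696 genes, edgeR recovered 4 of 64 genes changed by 0.5 on the log2 scale, 36 of 66 changed by 1 and 61 of 66 changed by 2.

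Members described with all libraries are, in each class, up to 5 per direction with the smallest p, those whose groups do not overlap, the 3 most abundant per kilobase and the genes of the family shares. Eif3a, Eif5b, Eif4enif1, Eif4g2, Eif6, Eif2s1, Eif2s2 and Eef1d were added after their values were seen. The members and lists were chosen with earlier results of these data known. Alternatives were RLE factors, library size only, abundant classes removed, other count filters, the replicate number as a block, GC and length corrections (loess, span 0.5, genes with a mean log2 CPM above 2), DESeq2 1.42.0, limma-voom (limma 3.58.1), the legacy edgeR fit, and libraries left out. DESeq2 gave no adjusted p for 8075 genes. All pairs of libraries differed by more than sampling noise, with a chi-square per gene of 7.63 or more. Intervals and tests on counts near 0 cover few reads.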

Additional observations from a re-analysis of the deposited data

Results flagged for a closer look

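Among 78 groups of 4 libraries checked for a value far from the other 3 by Dixon's ratio, 6 stood out, and chance gives about 1 in 20. In malonyl-CoA 4, Eif4a2, a helicase gene, was at 209.9 CPM, where the other malonyl-CoA libraries had 106.5 to 114.9 CPM. In the same library Eif4g3, a scaffold gene, was at 132.2 CPM, where the others had 39.5 to 53.7 CPM, and its share of Eif4g1 and Eif4g3 was 11.76%, where the others had 7.84% to 8.43%. In control 4, Eef2k, the eEF2 kinase, was at 198.2 CPM, where the other controls had 126.9 to 134.8 CPM. Eef1akmt1, a methyltransferase of eEF1A, was at 28.0 CPM in control 4, where the other controls had 33.0 to 33.8 CPM. In control 5, Eif5 was at 491.1 CPM, where the other controls had 388 to 400.1 CPM. What sets these libraries apart was not tested.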

How the results depend on the processing

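No factor was called under the scaling, filter, GC, DESeq2, limma-voom, legacy or leave-out alternatives. The exception was the replicate block, where Eif3e was the 1 initiation factor called (log2 fold change -0.57, adjusted p = 0.0464), 172 genes were called in all (144 higher, 28 lower), and 12 of 47 initiation and 3 of 10 elongation factors had an unadjusted p under 0.05, as did 25.5% of all genes. Same-numbered libraries deviated together with correlations of 0.43, 0.43, 0.75 and 0.052 for numbers 1, 3, 4 and 5, so the numbers were not taken to pair the samples. Libraries 1, 3 and 4 of each group correlated best with their own number, while malonyl-CoA 5 did so with control 1 (0.42) and control 5 with malonyl-CoA 3 (0.12). Over all genes, DESeq2 called 82 and the fit with no low-count filter 1, in which 1 elongation factor had an unadjusted p under 0.05.

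The count of initiation factors at an unadjusted p under 0.05 was 1 after the GC correction, 1 after the GC and length correction and 1 without both control 5 and malonyl-CoA 4. It ranged from 0 to 9 with each library left out in turn, 9 being without control 4, where 17.5% of all genes had such a p. It was 0, 0, 9 and 0 without numbers 1, 3, 4 and 5 of both groups, with 16.8% of all genes without number 4. For elongation factors it ranged from 0 to 1, and was 1 without number 4 of both groups. The median log2 fold change of the initiation factors was -0.074 (GC), 0.011 (library size only), 0.032 (without control 5 and malonyl-CoA 4) and -0.079 without malonyl-CoA 5.

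Of 768 recomputed log2 fold changes of 32 named factors, 57 had the other sign, in 13 factors. With library size only they were 0.0059 for Eef2, 0.013 for Eif1, 0.0015 for Eif2s3x and 0.011 for Eif4e2. With the replicate block they were -0.011 for Eef1g and 0.0012 for Eef2, and with limma-voom -0.0091 and 0.0016. With the GC correction they were -0.095 for Eef1g, 0.032 for Eif2s3x, -0.020 for Eif3g, 0.064 for Eif4e, -0.078 for Eif4ebp2 and -0.14 for Eif5a. With GC and length they were -0.034 for Eef1g, -0.016 for Eef2k, 0.055 for Eif2s3x, 0.031 for Eif4e, -0.12 for Eif4ebp2 and -0.070 for Eif5a. Without control 5 and malonyl-CoA 4 they were 0.028 for Eef1akmt1, -0.050 for Eef2k, 0.094 for Eif1, 0.053 for Eif4e, 0.036 for Eif4e2 and -0.092 for Eif4ebp2. Without number 1 of both groups Eef2 was at 0.041. Without number 3 Eif1 was at 0.022 and Eif2s3x at 0.031. Without number 4 Eef2 was at 0.064. Without number 5 Eef1g was at -0.17, Eif4a1 at -0.012, Eif4a2 at 0.017 and Eif5a at -0.19.

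With libraries left out, singly or control 5 with malonyl-CoA 4, the log2 fold change ranged from -0.26 to 0.028 for Eef1akmt1, -0.096 to 0.12 for Eef1g, -0.20 to 0.10 for Eef2, -0.050 to 0.30 for Eef2k, -0.13 to 0.094 for Eif1, -0.063 to 0.10 for Eif4a1, -0.12 to 0.053 for Eif4e, -0.078 to 0.036 for Eif4e2, -0.092 to 0.15 for Eif4ebp2 and -0.088 to 0.14 for Eif5a. The share differences ranged from -6.64 to -0.854 percentage points for Eif4a2, -4.20 to -1.71 for Eif1b and -0.411 to 1.14 for Eif4g3. Without malonyl-CoA 4 that of Eif4a2, and without control 3 that of Eif1b, had an unadjusted exact p of 0.0286. Without number 5 of both groups the Eif4a2 share differed by 0.0839 points, and without number 4 the Eif4g3 share by -0.333 points.

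Eif3j2, Eif4ebp3 and Eef1akmt3 had at most 8 counts in any library, which limits what can be said of them. A copy that is not a pseudogene covers 100% of the Eif3j2 transcript and 43.8% of that of Eif3j1. Reads with several positions were not counted, so the counts of Eif3j2 and Eif3j1 are uncertain at any depth. In the simulation most genes changed by 0.5 on the log2 scale were not recovered. The causes of these shifts were not tested.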
